A study of Mus musculus with 11 samples.

Results

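In sorted thymic epithelial cells, 10 genes of the AP-1 and immediate early class were followed: Fos, Fosb, Fosl1, Fosl2, Jun, Junb, Jund, Atf3, Egr1 and Ier2. They were taken by symbol from a table of 56691 genes, and all 10 were found and had counts above 0 in each of the 11 libraries. The cells came from NOD mice, a strain prone to autoimmune diabetes, aged between 4 and 8 weeks, that were, for Aire, WT/WT (3 libraries), WT/R249C (5 libraries) or R249C/R249C (3 libraries). R249C replaces an arginine by a cysteine in the SAND domain of Aire protein, which drives tissue-restricted genes in medullary thymic epithelium. CD45-positive cells were removed with magnetic beads before EpCAM-positive, CD45-negative cells were sorted, and the labels name no treatment. The study compared the genotypes; the sort was the same in all groups, and no unsorted or undissociated tissue is among the libraries, so nothing here measures the effect of dissociation itself.

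AP-1 is a dimeric transcription factor in which a Jun protein pairs with a Fos protein, another Jun protein or an ATF protein through a basic leucine zipper. Fos, Fosb, Jun, Junb, Atf3, Egr1 and Ier2 are immediate early genes, whose transcription starts within minutes of a MAP kinase signal and needs no new protein. Their transcripts are short-lived, and they are known to be induced when tissues are digested and sorted, which makes them a common marker of handling as well as of growth factor and stress signalling.

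The libraries fall into 2 sets by the names of their columns, called batch A and batch B here. Batch A holds WT/WT replicate 1, WT/R249C replicates 1 to 3 and all 3 R249C/R249C replicates, and its column names carry the word trimmed. Batch B holds WT/WT replicates 2 and 3 and WT/R249C replicates 4 and 5, without that word. For WT/R249C replicates 4 and 5 the title gives WT/R249C and the genotype field gives R249C/R249C; they are grouped by title, and batch B holds no other WT/R249C library. Library totals ran from 60560348 to 182319976 counts. All 12 thymic epithelial markers, among them Cd74, Epcam, Krt8, Foxn1 and Aire, were above 0 in every library. Their summed level was 24237 to 37660 CPM (each count scaled to the total of its library). That sum was mostly Cd74, with means of 21430 CPM in WT/WT and 26280 CPM in R249C/R249C. Epcam had means of 399 CPM in WT/WT and 488 CPM in WT/R249C. R249C changes 1 residue and Aire was above 0 in every library, so its detection is no check of the genotype labels. Whether its level differs by genotype was not used to check them. Markers of other cells were present too, at unlike levels. Thymocyte markers summed to 176 to 253 CPM in WT/WT, 79.3 to 190 CPM in WT/R249C and 108 to 160 CPM in R249C/R249C. Fibroblast markers summed to between 861 and 2406 CPM over all libraries. B cell markers, whose sums were mostly Igkc and Jchain, reached 1425 to 3025 CPM in WT/WT, 108 to 491 CPM with WT/R249C and 267 to 550.0 CPM in R249C/R249C. The B cell sum was thus higher in every WT/WT library than in any library with R249C. Without Igkc and Jchain the sums were 48.3 to 75.7 CPM in WT/WT, 17.4 to 53.2 CPM with WT/R249C and 22.7 to 42.2 CPM with R249C/R249C, so WT/WT and WT/R249C overlapped. The part of these cells in the genotype comparisons below was not tested. The defining B cell marker Ms4a1 was at 0 in 6 libraries, none of them WT/WT, and the thymocyte marker Rag2 was at 0 in 9 of the 11.

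Promoters are shown for Fos, Jun, Junb and Atf3, so that each family of AP-1 subunits is represented. They are the 250 bases before the RefSeq transcript start in build GRCm38.p6, written 5′ to 3′ on the strand of the gene, with matches to the motifs named below in capitals. RefSeq promoters were matched for 7 of the 10 genes; Fosl1, Egr1 and Ier2 are named only.
Fos, chr12:85473640-85473889, plus strand: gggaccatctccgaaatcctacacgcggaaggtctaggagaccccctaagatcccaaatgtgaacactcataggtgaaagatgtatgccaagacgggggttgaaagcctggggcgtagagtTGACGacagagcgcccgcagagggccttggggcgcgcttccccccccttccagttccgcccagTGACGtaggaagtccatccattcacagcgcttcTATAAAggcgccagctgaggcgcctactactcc
Jun, chr4:95052223-95052472, minus strand: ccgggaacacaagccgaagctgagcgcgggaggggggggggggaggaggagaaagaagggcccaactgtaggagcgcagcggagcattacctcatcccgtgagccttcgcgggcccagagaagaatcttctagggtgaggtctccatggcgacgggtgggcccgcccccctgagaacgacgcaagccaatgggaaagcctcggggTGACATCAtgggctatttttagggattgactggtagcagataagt
Junb, chr8:84978749-84978998, minus strand: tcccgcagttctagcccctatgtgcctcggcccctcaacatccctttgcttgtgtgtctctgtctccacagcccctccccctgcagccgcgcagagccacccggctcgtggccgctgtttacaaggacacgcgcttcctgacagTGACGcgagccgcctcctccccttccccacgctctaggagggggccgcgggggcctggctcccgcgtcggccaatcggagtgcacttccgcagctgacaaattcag
Atf3, chr1:191183334-191183583, minus strand: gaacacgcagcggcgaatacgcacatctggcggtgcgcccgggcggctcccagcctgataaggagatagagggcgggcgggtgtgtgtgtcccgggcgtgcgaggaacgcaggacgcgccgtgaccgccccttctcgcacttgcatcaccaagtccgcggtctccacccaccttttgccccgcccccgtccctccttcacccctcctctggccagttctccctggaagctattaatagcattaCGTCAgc

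Fos holds a TATA box, TATAAA, 33 to 28 bases before the start, a motif found in 7.59% of 32851 RefSeq promoters of the same length. It also holds TGACG, the core of the cyclic AMP response element (CRE), at 129 to 125 and at 66 to 62 bases before the start. That core lies 106 to 102 bases before the start of Junb, 60 to 56 bases before that of Fosb and, on the opposite strand, 7 to 3 bases before that of Atf3; it occurs in 17.8% of all promoters on either strand. Jun carries TGACATCA, the CRE-like element known for binding Jun and ATF2 dimers, at 45 to 38 bases before the start (2.93% of all promoters). GCGNGGGCG, the motif of the Egr1 zinc fingers, lies 50 to 42 bases before the Fosb start and 79 to 71 bases before the Fosl2 start (4.7% of all promoters). The full CRE TGACGTCA, the AP-1 motif TGANTCA and the CArG box of serum response factor, sought on both strands, had no match in these 7 windows and occur in 1.55%, 6.75% and 1.47% of all promoters. TGACG is part of TGACGTCA, so those 2 searches overlap. A match is a run of letters and not a binding site, and the lack of one says nothing of bases outside these windows.

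Of the 10 genes, Jun, Junb, Jund and Ier2 have 1 exon, which holds for 6.97% of 21753 annotated coding genes. The GC content of their transcripts ran from 51.9% for Fos to 67.2% for Jund, against a median of 49.2% over all genes. ATTTA, the core of the AU-rich elements that mark short-lived mRNAs, occurred in the 3′ UTR of 9 of the 10 genes, against 59.7% of all genes, and Ier2 was the exception. The longer element TTATTTATT was found in Fos and Fosl2, against 6.78% of all genes.

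Of the 10 genes, 5 were among the most abundant transcripts of these cells. By mean CPM over the 11 libraries Jun ranked 13, Junb 14, Egr1 25, Fos 27 and Ier2 28 of the 56691 genes. Fosb ranked 267, Atf3 289, Jund 871, Fosl2 4386 and Fosl1 16215. The 10 genes together took between 1.33% of all counts, in WT/WT replicate 2, and 2.04%, in WT/WT replicate 1. Their combined share was 1.59% ± 0.396 (SD, n = 3) for WT/WT, 1.58% ± 0.254 (n = 5) for WT/R249C and 1.58% ± 0.227 (n = 3) for R249C/R249C, so the group means lay closer together than the libraries within any group.

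On a scale per kilobase of exon, which allows levels to be set between genes, Junb was highest at 1921 CPM per kb, with single libraries from 1389 to 3305. Jun followed at 1392 (1037 to 1976), Ier2 at 1234 (930 to 2315), Fos at 854 (447 to 1415) and Egr1 at 472 (312 to 671). Each neighbour in this order overlapped the next in its range over libraries. Atf3 stood at 170 CPM per kb (56.9 to 348), Jund at 110 (37.0 to 192) and Fosb at 61.9 (39.3 to 113), again with overlapping ranges. Fosl2, at 5.41 CPM per kb (2.40 to 10.4), and Fosl1, at 0.953 (0.121 to 2.47), lay below all the others and did not overlap with them, although Fosl2 and Fosl1 overlapped narrowly with each other.

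**Figure D1:**
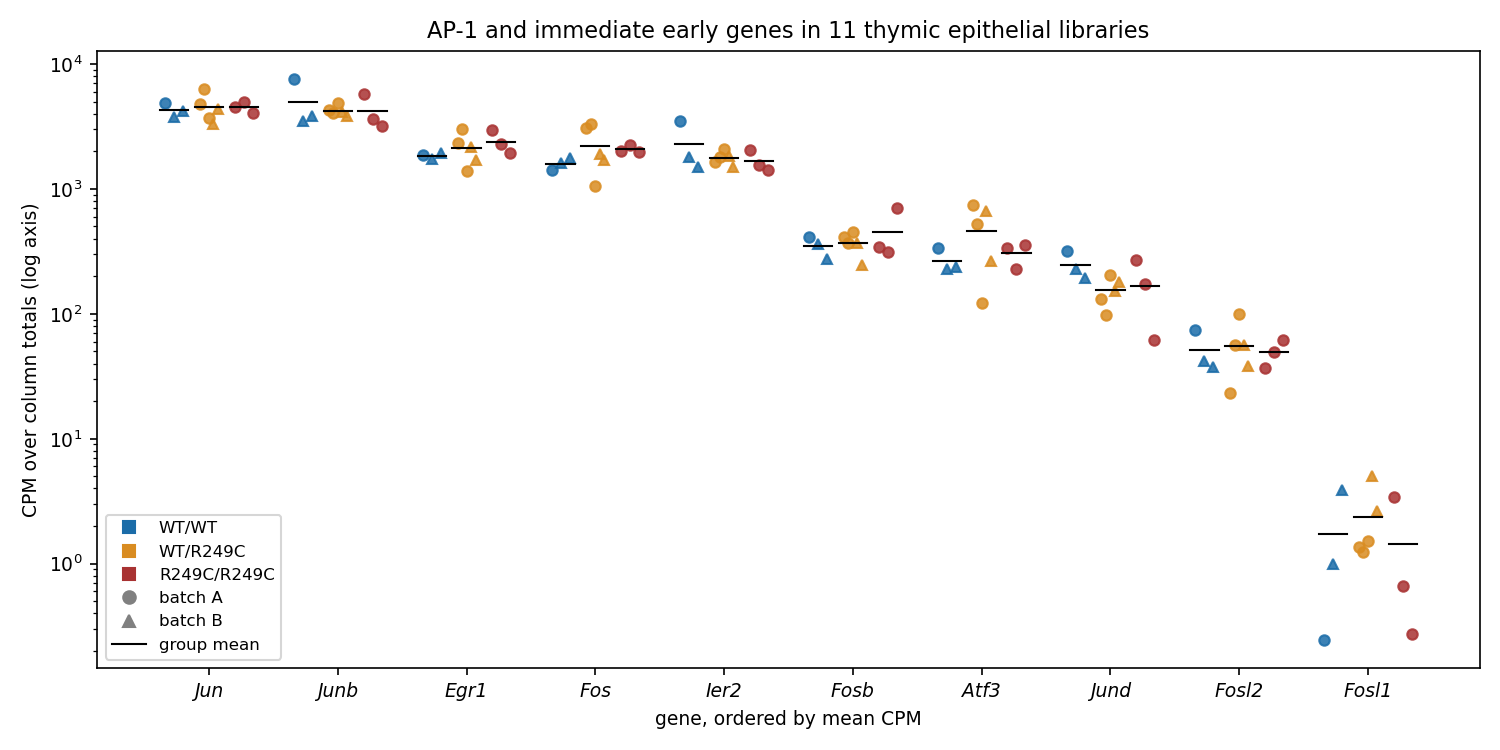
CPM over column totals (log axis) of the 10 genes in the 11 libraries, coloured by genotype, with circles for batch A, triangles for batch B and a bar at each group mean. Jun, Junb, Egr1, Fos and Ier2 lie above the other 5 genes in every library and Fosl1 between 0.246 and 5.03; the genotypes overlap for most genes.

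Among the Fos proteins, Fos, the classical partner of Jun, stood at 1419, 1618 and 1753 CPM in WT/WT replicates 1 to 3. In WT/R249C replicates 1 to 5 it stood at 3088, 3328, 1052, 1896 and 1690 CPM. R249C/R249C replicates 1 to 3 gave 2017, 2262 and 1972 CPM. All R249C/R249C libraries were above all WT/WT libraries, while WT/R249C held both the highest and the lowest library of the series. Fosb, the closest relative of Fos, had 409, 359 and 272 CPM in WT/WT, and 410, 371, 451, 368 and 245 CPM in WT/R249C. R249C/R249C gave 345, 314 and 704 CPM for Fosb. Replicate 3 of R249C/R249C was the highest Fosb library of the series, and the groups overlapped.

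Fosl2, which encodes Fra-2, was at 74.5, 41.8 and 37.7 CPM in WT/WT. Its WT/R249C values were 23.2, 56.7, 100.4, 55.9 and 38.6 CPM, and those of R249C/R249C 36.6, 49.6 and 61.3 CPM. The WT/R249C libraries spanned the whole range of the other 2 groups. Fosl1, which encodes Fra-1, was scarce at 0.246, 0.988 and 3.92 CPM in WT/WT, where the lowest value rests on 26 counts. It was at 1.36, 1.24, 1.52, 5.03 and 2.66 CPM in WT/R249C and 3.42, 0.657 and 0.272 CPM in R249C/R249C. These levels differ up to 20.4 times between libraries with no separation by genotype. Fosl1 shares 2767 bases with Ccdc85b on the opposite strand, and the use of strand in counting is not given in the sources here, so its low counts are uncertain.

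Of the Jun proteins, Jun itself was the steadiest. It stood at 4887, 3745 and 4187 CPM in WT/WT, and at 4813, 6301, 3696, 3306 and 4337 CPM in WT/R249C. R249C/R249C libraries held 4539, 4931 and 4078 CPM of Jun. Its highest and lowest libraries were both WT/R249C and the other groups lay between them. Junb, which often opposes Jun at shared targets, was at 7605, 3513 and 3849 CPM in WT/WT. In WT/R249C it was at 4302, 4046, 4866, 4110 and 3800 CPM, and in R249C/R249C at 5719, 3605 and 3197 CPM. WT/WT replicate 1 was the highest Junb library, and without it the 3 groups overlapped. Jund, the Jun protein least dependent on stimulation, was at 320, 228 and 192 CPM in WT/WT. It was at 132, 98.04, 205, 152 and 181 CPM in WT/R249C and at 271, 173 and 61.7 CPM in R249C/R249C. The groups overlapped, with the lowest library in R249C/R249C. Junb shares 351 bases with Prdx2 on the opposite strand, and Jun and Jund overlap the antisense genes Junos and Gm11175. Prdx2 had a median of 266 CPM, and Junos and Gm11175 stayed at or below 3.48 and 0.454 CPM.

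Atf3, a stress-induced partner of Jun that can repress its own promoter, varied most among the abundant genes. It had 337, 228 and 236 CPM in WT/WT. WT/R249C gave 750, 519, 123, 667 and 263 CPM, and R249C/R249C gave 335, 227 and 353 CPM. The 3 highest libraries and the lowest were all WT/R249C. Egr1, a zinc finger factor induced with Fos through serum response factor, had 1870, 1738 and 1924 CPM in WT/WT. Its WT/R249C libraries held 2327, 3010, 1400, 2162 and 1702 CPM, and its R249C/R249C libraries 2953, 2280 and 1936 CPM. All R249C/R249C libraries were above all WT/WT libraries, although replicate 3 of R249C/R249C exceeded the highest WT/WT library by little. Ier2, a nuclear protein without a leucine zipper, had 3523, 1803 and 1509 CPM in WT/WT, and 1634, 1787, 2073, 1825 and 1501 CPM in WT/R249C. R249C/R249C gave 2042, 1551 and 1416 CPM. As for Junb, WT/WT replicate 1 was highest, and the rest overlapped.

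No difference between homozygous and wild-type cells passed the test in any of the 10 genes. None reached an adjusted p of 0.05 by the quasi-likelihood test of edgeR, fitted on all 11 libraries with batch as a term, and all 10 adjusted p-values were 1. All 10 genes had passed its filter on low counts. In the table as a whole 0 of 26980 genes passed (0%) and 865 (3.21%) had an unadjusted p under 0.05. With 0 genes passing, the lack of a call by edgeR does not show equal levels, here or in the comparisons below. DESeq2 called 860 of 35089 genes (2.45%) and limma voom 0 of 26980 (0%), and neither called any of the 10. Fos and Egr1 were the 2 of the 10 genes that were above in every R249C/R249C library, which held for 3.42% of all genes tested. None was below in every library (4.68% of all genes). This separation is of CPM not adjusted for batch. WT/WT replicates 2 and 3 are of batch B, which holds no R249C/R249C library. Fos and Egr1 also varied together over the libraries (rho = 0.93), so they are not separate cases. Both comparisons with WT/WT use the same 3 WT/WT libraries.

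For Fos the fitted log2 fold change, adjusted for batch, was 0.25 (95% interval -0.85 to 1.34), from means of 2083 ± 156 CPM in R249C/R249C and 1596 ± 168 CPM in WT/WT (SD, n = 3 each). Without WT/WT replicate 1 it was -0.07, and within batch A, against that library alone, 0.56. For Egr1 the log2 fold change was 0.31 (-0.51 to 1.12), with 2390 ± 517 CPM against 1844 ± 95.4 CPM, and 0.37 within batch A. Without R249C/R249C replicate 1 the Egr1 value was 0.11, and without WT/R249C replicate 3 it was 0.20. Ier2 had the smallest unadjusted p of the 10 genes, 0.048 by edgeR, with a log2 fold change of -0.67 (-1.33 to -0.01) and an adjusted p of 1. That value rests on WT/WT replicate 1: it was 0.02 without this library, and -1.07 within batch A. Junb had a log2 fold change of -0.47 (-1.18 to 0.24), which became 0.17 without WT/WT replicate 1 and -0.85 within batch A. The remaining values were 0.16 for Fosb, 1.73 for Fosl1 (-1.71 to 5.16; 0.05 without R249C/R249C replicate 1), -0.33 for Fosl2, -0.12 for Jun, -0.55 for Jund and 0.10 for Atf3, whose sign turned to -0.14 within batch A. For Fosl1 and Jun the means without adjustment for batch went the other way. They were 1.45 CPM in R249C/R249C against 1.72 CPM in WT/WT for Fosl1, and 4516 against 4273 CPM for Jun. Over the 10 genes 5 fitted values were positive and 5 negative, with a median of -0.01 beside -0.02 over all genes tested.

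Heterozygous cells likewise gave no call against wild type. For WT/R249C against WT/WT none of the 10 genes passed by edgeR (0% of 26980 genes; 940 genes, 3.48%, had an unadjusted p under 0.05, none of the 10). DESeq2, which called 779 of 35089 genes (2.22%), and limma voom (0%) also called none of the 10. The B cell marker Igkc, at 119 ± 92.0 CPM in WT/R249C against 1403 ± 592 CPM in WT/WT, was called by DESeq2. It did not pass by edgeR either (unadjusted p = 3.0e-05, adjusted p = 0.81), so edgeR could miss large differences. None of the 10 lay above or below WT/WT in every library, as 1.1% and 1.83% of all genes did. Atf3 had the largest positive log2 fold change among the abundant genes, 0.79 (-0.49 to 2.07), with 464 ± 266 CPM (n = 5) against 267 ± 60.8 CPM (n = 3). It was 0.47 within batch A and 1.05 within batch B, and 0.33 without WT/R249C replicate 4, a library with contested labels. Jund had the most negative, -0.71 (-1.69 to 0.28), with 154 ± 41.9 CPM against 247 ± 66.0 CPM, and was -1.21 within batch A, -0.30 within batch B and -0.29 without WT/WT replicate 1. Fos gave 0.41 (-0.46 to 1.28) and, without WT/WT replicate 1, 0.14. Egr1 gave 0.17 (-0.47 to 0.82) and Fosl1 1.37 (-1.37 to 4.11). Jun, Fosl2 and Fosb were near 0 at -0.02, -0.01 and -0.02. The median over the 10 genes was -0.01 beside 0.02 over all genes.

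For Junb and Ier2 the fitted values of this comparison differed between the batches, and none passed in either. Ier2 gave -0.42 (-0.95 to 0.10) in the joint fit, -0.99 (SE 0.27) within batch A and 0.05 (SE 0.21) within batch B. Junb gave -0.30 (-0.87 to 0.27) in the joint fit, -0.83 (SE 0.37) within batch A and 0.15 (SE 0.15) within batch B. For this contrast batch A has 1 WT/WT library, the one with the highest Junb and Ier2. A term for the difference between batches, chosen after these values were seen, was 1.03 on the log2 scale for Junb (SE 0.24, unadjusted p = 0.0056 by edgeR) and 1.08 for Ier2 (SE 0.30, unadjusted p = 0.012). Neither passed adjustment over 25519 genes (adjusted p = 0.983 for both), where 0 genes passed and 998 had an unadjusted p under 0.05. That term rests on WT/R249C replicates 4 and 5, whose labels disagree.

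Within batch A alone, R249C/R249C and WT/R249C libraries were compared 3 against 3. None of the 10 genes passed by edgeR (0% of 23695 genes; 256 genes, 1.08%, had an unadjusted p under 0.05, none of the 10), by DESeq2 (117 of 27536 genes, 0.425%) or by limma voom (0%). No gene of the 10 was separated between the groups, while 3.45% of all genes were above and 5.41% below in every R249C/R249C library. Atf3 had the largest log2 fold change in size, -0.61 (-2.22 to 1.00), with 305 ± 68.2 CPM against 464 ± 317 CPM, and was -0.05 without WT/R249C replicate 1. Fos stood at -0.25 (-1.40 to 0.89), Jund at 0.29 (-1.09 to 1.67) and Fosl2 at -0.22 (-1.44 to 1.00). Fosb gave 0.18, Fosl1 0.16, Egr1 0.11, Jun -0.10, Ier2 -0.08 and Junb -0.02. The interval for Ier2, from -0.60 to 0.44 on the log2 scale, was the narrowest of the 10, and that of Fosl1, from -2.85 to 3.16, the widest.

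**Figure D2:**
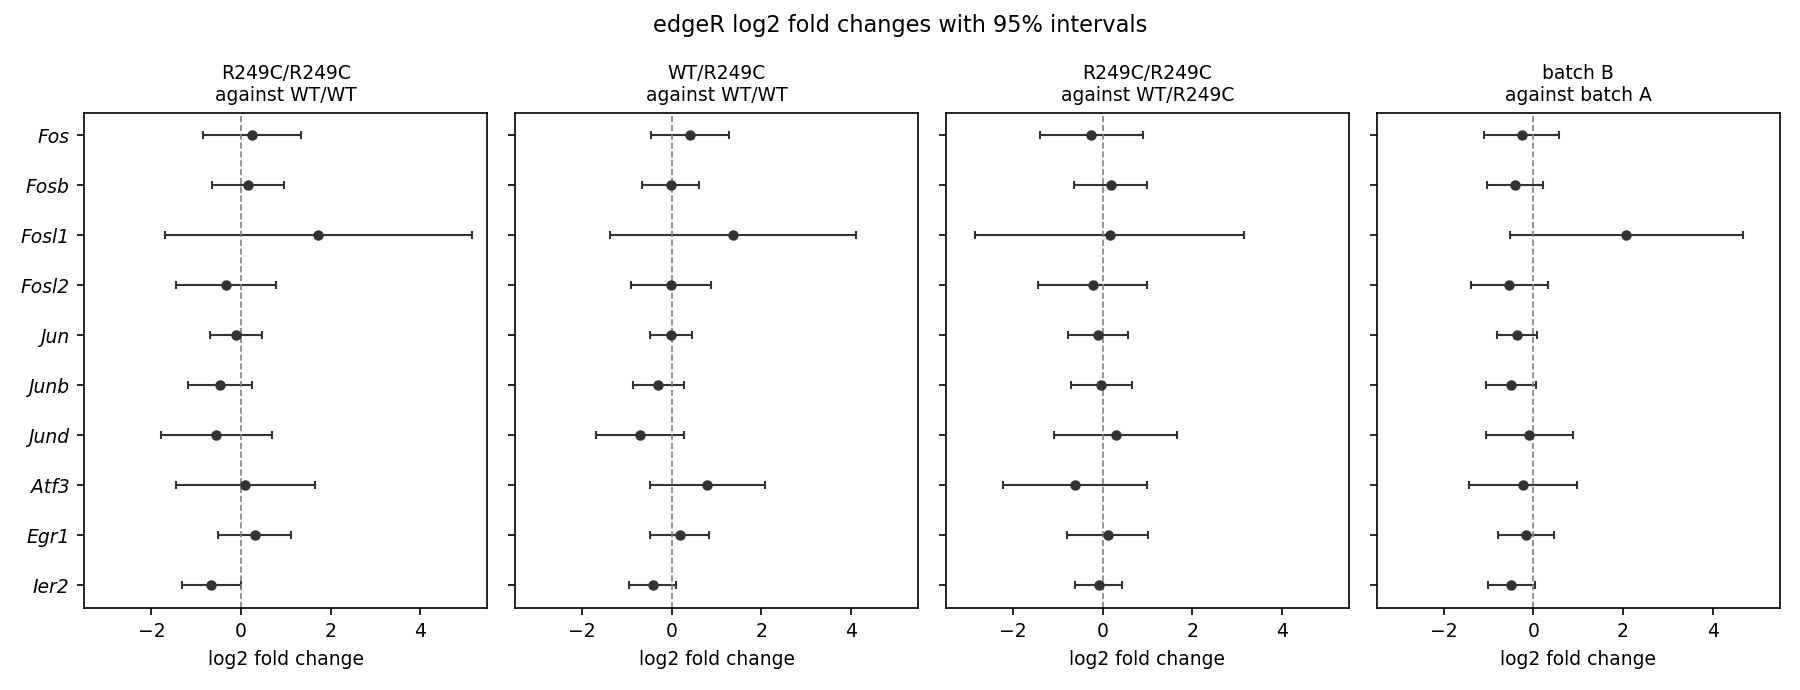
Log2 fold changes from edgeR (points) with 95% intervals (bars) for the 10 genes in the 3 genotype comparisons and in batch B against batch A; the dashed line marks no change. All intervals but that of Ier2 in R249C/R249C against WT/WT, -1.33 to -0.01, include 0, and the widest are those of Fosl1.

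Between the batches, 9 of the 10 genes had a negative log2 fold change of batch B against batch A, fitted with genotype as a term. Their median was -0.31, beside -0.01 over all genes tested. None passed by edgeR (0% of 26980 genes; 966 genes, 3.58%, had an unadjusted p under 0.05, none of the 10), DESeq2 (713 of 35861 genes, 1.99%) or limma voom (0%). Ier2 had the smallest p, 0.061 by edgeR, at -0.49 (-1.01 to 0.03), followed by Junb at -0.49 (-1.05 to 0.07) and Jun at -0.37 (-0.82 to 0.08). Without WT/WT replicate 1 the Ier2 value was -0.08, that of Junb -0.10 and that of Jun -0.34. Fosl1 was the exception at 2.08 (-0.52 to 4.67), and Jund, at -0.09, turned to 0.08 with limma voom. No gene of the 10 was separated between the batches, while 0.297% of all genes were above and 0.241% below in every library of batch B.

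The libraries of batch B lay closer to each other than those of batch A for all 10 genes by the ratio of highest to lowest library, with 4 libraries against 7. Fos ran from 1618 to 1896 CPM in batch B and from 1052 to 3328 CPM in batch A. Junb ran from 3513 to 4110 CPM in batch B and from 3197 to 7605 CPM in batch A. Jun ran from 3306 to 4337 CPM in batch B and from 3696 to 6301 CPM in batch A. The spread was not tested between the batches.

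Most of the class had a smaller spread between libraries than the median over all genes, a comparison not matched for abundance. The biological coefficient of variation of the edgeR fit, the spread left between libraries of the same genotype and batch, was 0.22 for Jun, 0.25 for Ier2, 0.27 for Junb, and 0.28 for both Fosb and Egr1. It was 0.35 for Fos, 0.39 for Fosl2, 0.42 for Jund and 0.51 for Atf3, against a median of 0.864 over all genes. Jun lay at percentile 3 of all genes and Atf3 at percentile 30.3. Fosl1, at 0.999 and percentile 54.3, was the only member above the median. It was also the scarcest member, at rank 16215 by mean CPM. No set of genes of like abundance was compared, so the part of expression level in these percentiles was not tested.

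The 10 genes did not rise and fall as a single block across libraries. Among the 45 pairs, Pearson correlations of log2(CPM + 1) over the 11 libraries were positive for 22 and negative for 23, with a median of -0.01. With TMM-scaled library sizes 27 were positive and 18 negative, with a median of 0.10. Libraries share depth and cell makeup, so these values describe the libraries together. After Benjamini-Hochberg adjustment over the 45 pairs, 1 pair passed by Pearson's r and another by Spearman's rho, both two-sided in permutation tests.

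Junb and Ier2, both single-exon genes on chromosome 8, formed the pair that passed by Pearson's r. Their r was 0.92 (permutation p = 0.00027, adjusted p = 0.012) and their rho 0.79 (permutation p = 0.0055, adjusted p = 0.123). Leaving out the 2 libraries farthest from the Junb median, WT/WT replicate 1 and R249C/R249C replicate 1, left r at 0.73. Within the 7 libraries of batch A r was 0.95 (exact permutation p = 0.00099), and batch B, with 4 libraries, was too small for a value. Jund, the third gene of the class on that chromosome, had r = 0.67 with Junb and 0.64 with Ier2, neither of which passed adjustment (permutation adjusted p = 0.26 and 0.27).

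Fos and Egr1 formed the pair that passed by rank. Their rho was 0.93 (permutation p = 0.00014, adjusted p = 0.0063) and their r 0.82 (permutation p = 0.0025, adjusted p = 0.057). Without WT/R249C replicates 2 and 3, the libraries with the most and the least Fos, r was 0.58, and within batch A it was 0.82 (exact permutation p = 0.025). Atf3 and Jun went with Fos at r = 0.74 and 0.64, which did not pass (permutation adjusted p = 0.14 and 0.26). Fosl2 ran against Fos at r = -0.59 (permutation adjusted p = 0.28). WT/R249C replicate 3 held the least Fos, Atf3 and Egr1 and the most Fosl2, and was also the shallowest library.

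**Figure D3:**
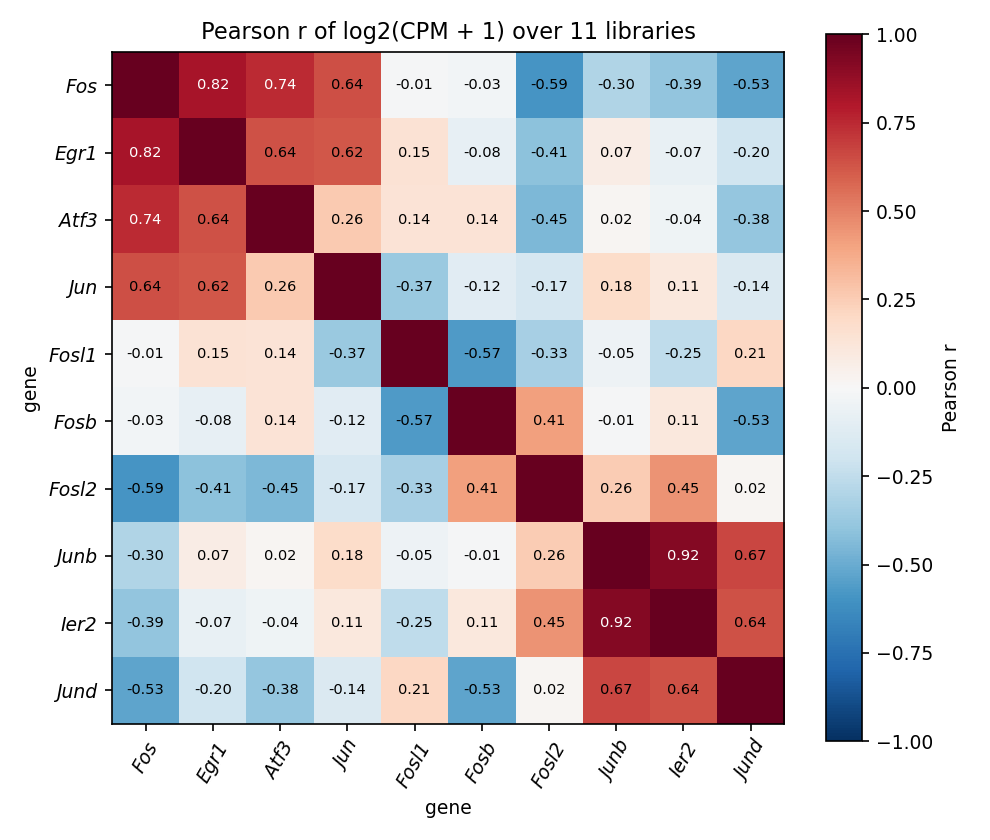
Pearson r of log2(CPM + 1) between the 10 genes over the 11 libraries, from -1 (blue) to 1 (red), with the genes placed so that alike genes are neighbours. Fos, Egr1, Atf3 and Jun lie together with r from 0.26 (Jun with Atf3) to 0.82, and Junb, Ier2 and Jund with r from 0.64 to 0.92; after adjustment only Junb with Ier2 passed by Pearson's r.

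**Figure D4:**
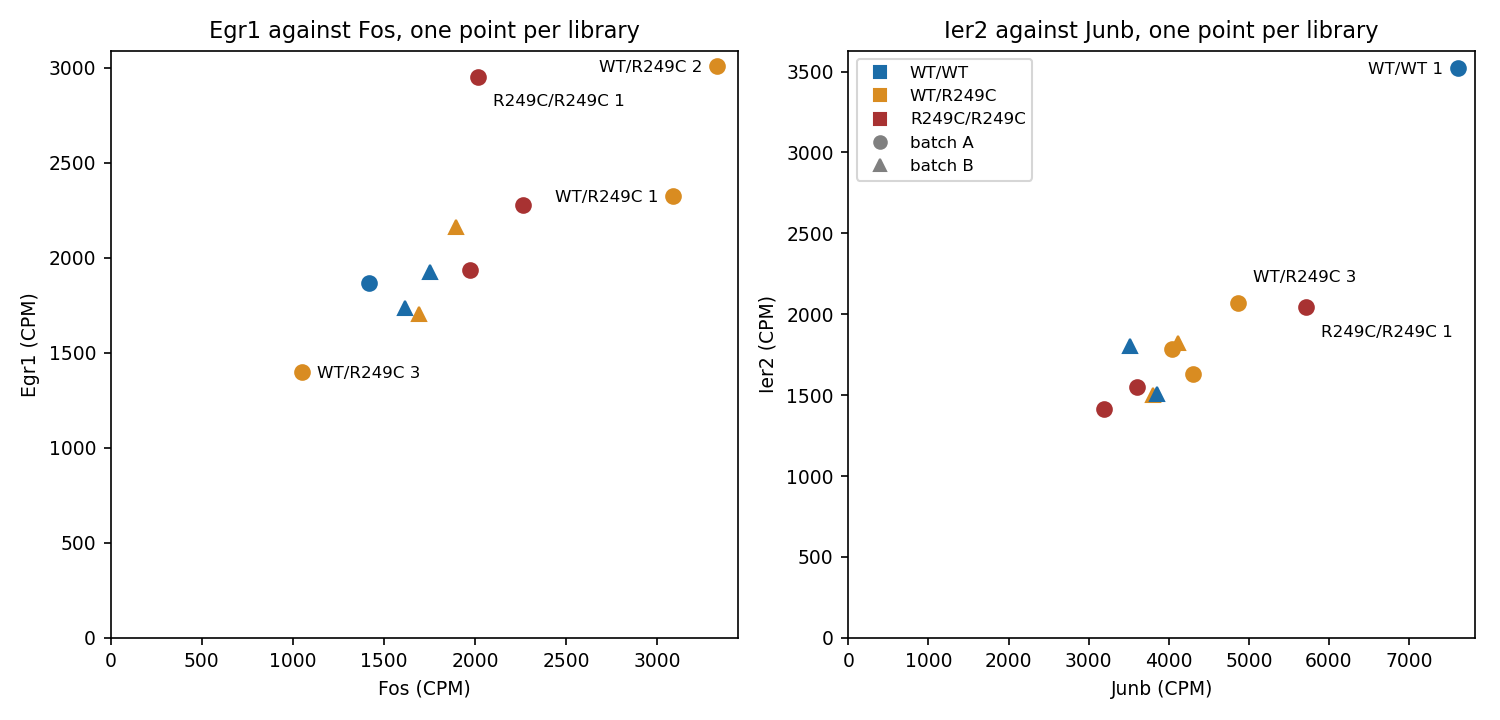
CPM of Egr1 against Fos and of Ier2 against Junb, with 1 point per library, coloured by genotype and shaped by batch. WT/R249C replicate 2, at 3328 CPM of Fos, and replicate 3, at 1052 CPM, mark the ends on the left; on the right WT/WT replicate 1, at 7605 CPM of Junb, lies far from the other 10 libraries.

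The abundance of the 10 genes was also set against 7 measures of each library: total counts, the mitochondrial share of counts, and the summed CPM of 14 heat shock genes of dissociation and of markers of 4 cell types. None of the 70 correlations passed adjustment by Pearson's r or by Spearman's rho, in permutation tests, and 5 had an unadjusted p under 0.05. The smallest p was that of Fos with the heat shock sum, at r = 0.85 (permutation p = 0.0012, adjusted p = 0.082) and rho = 0.83. Without WT/R249C replicates 1 and 2 this r was 0.61, and within batch A it was 0.91 (exact permutation p = 0.0071). The heat shock sum ran from 7922 to 9917 CPM in WT/WT, from 8168 to 12190 CPM in WT/R249C and from 9021 to 9871 CPM in R249C/R249C. The rest of the 5 were Egr1, Atf3 and Jun with this sum (r = 0.68, 0.65 and 0.63) and Fosl2 with total counts (r = -0.64). Fosl2, Jund, Ier2 and Junb had negative r with the heat shock sum. Total counts had r = 0.53 with Atf3, 0.52 with Fos and 0.47 with Egr1. In batch A alone these were 0.92, 0.84 and 0.78 (unadjusted exact permutation p = 0.0063, 0.014 and 0.039). The part of depth was not tested. Fos had r = -0.52 with the B cell sum (permutation adjusted p = 0.41). Junb and Ier2 had r = 0.57 and 0.62 with the thymocyte sum (permutation adjusted p = 0.41 for both), and WT/WT replicate 1 held the most of all 3. Jund had r = 0.58 with that sum (permutation adjusted p = 0.41) and rho = 0.76 (permutation adjusted p = 0.22). In batch A alone r was 0.87 for Junb, 0.89 for Ier2 and 0.90 for Jund (unadjusted exact permutation p = 0.011, 0.0077 and 0.0056). Without WT/WT replicate 1 and WT/R249C replicate 5 it was 0.31, 0.26 and 0.79.

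Genes outside the class whose level went most with it were ranked by Pearson r over the 11 libraries, as a description, among 12010 genes of at least 5 CPM. With the mean z score of the 10 genes these were Tor1aip2 (r = 0.89), Ntf5 (0.88), Rab33b (0.87), Socs3 (0.84) and Abcc10 (0.83). Socs3, a feedback inhibitor of cytokine signalling, ran from 428 CPM in WT/WT replicate 3 to 960 CPM in WT/R249C replicate 2. The ranking was repeated for Fos and for Junb, chosen after the correlations among the 10 genes were seen. With Fos the genes reported here were Gstm1 (0.92), Eif4a2 (0.91), Hif1a (0.90) and Zfp36 (0.90). Zfp36, which binds AU-rich elements and destabilises such mRNAs, ran from 209 to 1404 CPM. With Junb it gave Tiprl (0.92), Sucla2 (0.89), Ubqln1 (0.88), Cdyl (0.87) and Tpgs2 (0.86), and no gene stood on both of these lists.

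The kinases and factors that switch the class on gave no call between genotypes either. Of 15 genes for MAP kinases and serum response, none passed by edgeR in R249C/R249C against WT/WT, with 6 positive and 9 negative values and a median log2 fold change of -0.29 (all genes -0.02). In WT/R249C against WT/WT 7 were positive and 8 negative, with a median of -0.05 (all genes 0.02). Map2k1, which encodes the MAP kinase kinase MEK1, stood at 152 ± 34.2 CPM in WT/R249C (n = 5) and 100 ± 13.2 CPM in WT/WT (n = 3), with every WT/R249C library above, as for 1.1% of all genes. Its log2 fold change was 0.62 (SE 0.19, unadjusted p = 0.0095 and adjusted p = 1 by edgeR). Map2k4, a kinase upstream of JNK, lay below WT/WT in every WT/R249C library, as for 1.83% of all genes, at 55.8 ± 11.4 CPM against 72.5 ± 5.496 CPM (log2 fold change -0.48, adjusted p = 1 by edgeR). Map2k7, an activator of the JNK kinases that phosphorylate Jun, had a log2 fold change of -0.90 in R249C/R249C against WT/WT (SE 0.39, unadjusted p = 0.047 and adjusted p = 1 by edgeR).

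Other immediate early genes, 32 in all, gave 17 positive and 15 negative values in R249C/R249C against WT/WT and 23 positive and 9 negative values in WT/R249C against WT/WT, and none passed by edgeR or DESeq2. Their medians were 0.03 and 0.20 on the log2 scale, beside -0.02 and 0.02 over all genes. Cebpb, a leucine zipper factor of inflammation, was at 68.4 ± 16.8 CPM in WT/WT, 25.2 ± 9.51 CPM in WT/R249C and 30.4 ± 20.6 CPM in R249C/R249C. Both groups with R249C lay below every WT/WT library for Cebpb. That held for 2 of the 32 genes in R249C/R249C (4.68% of all genes) and for 1 of the 32 in WT/R249C (1.83% of all genes). Cebpb had log2 fold changes of -1.44 (SE 0.53, unadjusted p = 0.023 and adjusted p = 1 by edgeR) for WT/R249C and -1.04 (SE 0.66, adjusted p = 1) for R249C/R249C. Ier3, a stress-response gene, had 108 ± 48.6 CPM in WT/R249C and 53.3 ± 17.2 CPM in WT/WT, with an adjusted p of 1 by edgeR. The 14 leucine zipper partners, among them Batf, Atf2 and Creb1, gave 8 positive and 6 negative values in both of these comparisons, and none passed.

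Feedback inhibitors of these pathways, such as Dusp1, Zfp36 and Socs3, gave 11 positive and 7 negative values of 18 in R249C/R249C against WT/WT and 10 and 8 in WT/R249C against WT/WT. None passed by edgeR or DESeq2, and the medians were 0.19 and 0.08. Zfp36 was at 922 ± 464 CPM in WT/R249C (n = 5) and 513 ± 143 CPM in WT/WT (n = 3), a log2 fold change of 0.97 with an adjusted p of 1 by edgeR. Dusp5, a nuclear phosphatase of ERK, gave 2.17 in R249C/R249C against WT/WT (SE 1.04, adjusted p = 1 by edgeR), with 24.9 ± 1.83 against 18.6 ± 14.9 CPM.

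Among 16 known targets of AP-1, the matrix metalloproteinase gene Mmp3 was called between R249C/R249C and WT/WT by 1 of the tools. It was at 2.75, 10.1 and 4.83 CPM in WT/WT, and at 3.96, 1.18, 0, 1.85 and 6.97 CPM in WT/R249C. All 3 R249C/R249C libraries were at 0, and the WT/R249C libraries overlapped both other groups. Taking 3 counts over the R249C/R249C group as the detection floor, its level was at least 605.5-fold lower than the WT/WT mean of 5.90 ± 3.80 CPM. This bound was 389-fold without WT/WT replicate 2, and 282.7-fold with batch A alone, where WT/WT is represented by replicate 1. It covers counting error only, and neither the spread between libraries nor transcripts missed in low-input libraries. WT/R249C replicate 3 was at 0 as well. DESeq2 called it (adjusted p = 0.000401, with 2.45% of genes called) and edgeR did not (unadjusted p = 0.0060, adjusted p = 1). Mmp3 is known for its expression in stromal fibroblasts, whose 8 markers summed to 1444 to 2178 CPM in WT/WT and 1245 to 2406 CPM in R249C/R249C, with 0 of 8 called. That sum was mostly Dcn, at a mean of 1354 CPM in R249C/R249C against 986 CPM in WT/WT. Of the fitted values 6 were positive and 2 negative. The negative ones were Col1a2 (63.9 against 106 CPM) and Col3a1 (215 against 340 CPM), both with overlapping libraries. The other 15 targets, with Plau, Ccnd1 and Hbegf among them, were called by none of the tools. The list had 11 positive and 5 negative fitted values in that comparison, with a median of 0.62 beside -0.02 over all genes. These values are adjusted for batch and depend on the 1 WT/WT library of batch A. Mmp10, near the floor, was fitted at 5.84, although its means were 0.573 CPM in R249C/R249C and 1.84 CPM in WT/WT. Mmp9 was fitted at 1.94 with 32.8 against 29.0 CPM, and Mmp13 at -11.3 with 0.166 against 1.80 CPM. The median was not recomputed without single libraries. In bulk libraries a smaller share of expressing cells and less RNA per cell cannot be told apart.

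The 14 heat shock genes, which respond to the same handling, gave 10 positive and 4 negative values in R249C/R249C against WT/WT and 9 and 5 in WT/R249C against WT/WT, and none passed by edgeR or DESeq2. Hspd1, a mitochondrial chaperonin, was at 315 ± 35.2 CPM in R249C/R249C and 241 ± 53.2 CPM in WT/WT. Dnajb1, a co-chaperone of Hsp70, was at 868 ± 381 CPM and 1224 ± 472 CPM (adjusted p = 1 by edgeR for both). In batch B against batch A this list gave 6 positive and 8 negative values with a median of -0.07, while the 10 genes of the AP-1 class gave 1 and 9 with a median of -0.31.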

How the data were processed

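Sorted thymic epithelial RNA was sequenced in 11 libraries made with a low-input kit, per the labels. The deposited values are whole-number counts per gene, not normalized. Mouse build mm39 was used with FastQC, HISAT2 and StringTie, per the submitters' processing notes; versions, the annotation and the use of strand are not given in the sources used here. GENCODE names gave symbols for 52073 of the 56691 genes, which held at least 99.7% of the counts of each library. No pair of libraries was a duplicate: at most 0.11% of well-covered genes had equal counts.

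CPM is over column totals. Tests used edgeR 4.0.16 in R 4.3.3 (robust quasi-likelihood, TMM, filterByExpr), two-sided, at a Benjamini-Hochberg adjusted p of 0.05 over all genes tested; DESeq2 1.42.0 and limma voom 3.58.1 with quality weights were run beside it. Comparisons with WT/WT and between batches used 1 fit of all 11 libraries with genotype and batch; R249C/R249C against WT/R249C used the 6 libraries of batch A, so every within-batch value of it is that value. R249C/R249C has no library in batch B. With 1 WT/WT library in batch A, that sample is assumed to vary like the other groups. The test was also run on simulated data. Correlations used log2(CPM + 1) and 100000 permutations, or exact enumeration within batch A. Motifs were searched in RefSeq promoters of build GRCm38.p6, which is not the build of the counts; no coordinate was moved between builds. Exon lengths came from GENCODE M21.

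The titles call the libraries biological replicates, but nothing says how many mice each holds, so p-values measure the spread between libraries. Intervals come from the edgeR fit; the floor of 3 counts covers counting error only, since reads carry no molecular identifiers. The members and the gene lists were chosen with earlier results of these data known. All 10 members are named in every comparison; of the other lists, genes named are among the 4 of smallest unadjusted p per comparison, and the 5 most alike genes leave out gene models without a proper name; 1 of the 5 genes most alike to Fos is not reported here. Lists of endothelial, myeloid and erythroid markers were summed as well, at 64.6 to 297, 52.3 to 282 and 7.56 to 233 CPM per library. Alternatives were other scalings, no filter, no batch term, a replicate block, other uses of the 2 contested libraries, and leaving out each library.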

Additional observations from a re-analysis of the deposited data

How the results depend on the processing

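No alternative brought any of the 10 genes past the threshold. Of 770 recomputed log2 fold changes, 700 kept their sign and 70 turned; the cause was not tested. Over all genes DESeq2 called 860 in R249C/R249C against WT/WT, 779 in WT/R249C against WT/WT, 117 in R249C/R249C against WT/R249C and 713 between batches, where edgeR called 0. Correlations that passed were 2 with TMM scaling, 1 without.

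In R249C/R249C against WT/WT, signs turned to 0.032 for Fosl2 with limma voom, -0.13 for Fosl1 and 0.12 for Jun with no batch term, and -0.14 for Atf3 both without the contested libraries and within batch A. In WT/R249C against WT/WT, they turned to 0.0915 for Fosb with limma voom and 0.0017 for Fosl2 with column totals. With no batch term they were 0.0878 for Fosb, 0.0698 for Fosl2 and 0.084 for Jun. Counting the contested libraries as R249C/R249C gave 0.0287 for Jun, and batch B alone gave 0.29 for Fosl2, 0.15 for Junb and 0.0461 for Ier2. In R249C/R249C against WT/R249C, Junb turned to 0.0503 with DESeq2, 0.0205 with limma voom, 0.0133 with size factors and 0.0101 with no filter. Limma voom also gave -0.28 for Fosl1, 0.31 for Fosl2 and -0.0596 for Egr1. Between batches, Jund turned to 0.0757 with limma voom and 0.0348 with no genotype term, Fos to 0.19 without the contested libraries, and Atf3 to 0.15 with them as R249C/R249C.

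Libraries with the same replicate number in their titles did not deviate together. Their correlations ran from -0.22 to 0.14 over 9 pairs, 2 of them above 0.1, and 2 of 9 libraries matched their own number best. This cannot exclude a pairing, since each genotype has few libraries and some of these numbers join different batches. With the replicate block 0 of the 10 genes and 0 of all genes were called in each comparison. The block turned Fosb to -0.0005 in R249C/R249C against WT/WT, Jun to 0.0156 in WT/R249C against WT/WT, and Fosl1 to -0.68 in R249C/R249C against WT/R249C. Between batches it turned Fos to 0.59, Jund to 0.0037, Atf3 to 0.27 and Egr1 to 0.34.

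Leaving out each library in turn left every count at 0 and turned 24 signs in at least 1 case. In R249C/R249C against WT/WT the ranges were -0.24 to 0.49 for Atf3, -0.0674 to 0.39 for Fos, -0.27 to 0.38 for Fosb, -0.50 to 0.12 for Fosl2, -0.86 to 0.0169 for Ier2, -0.79 to 0.17 for Junb and -1.11 to 0.0546 for Jund. In WT/R249C against WT/WT they were -0.19 to 0.11 for Fosb, -0.22 to 0.30 for Fosl2, -0.63 to 0.0495 for Ier2, -0.11 to 0.0673 for Jun and -0.42 to 0.15 for Junb. In R249C/R249C against WT/R249C they were -0.17 to 0.40 for Egr1, -0.64 to 0.0218 for Fos, -0.26 to 0.40 for Fosb, -1.53 to 0.66 for Fosl1, -0.59 to 0.28 for Fosl2, -0.27 to 0.0433 for Ier2, -0.32 to 0.13 for Jun, -0.34 to 0.15 for Junb and -0.26 to 0.70 for Jund. Between batches they were -0.75 to 0.0675 for Atf3, -0.32 to 0.0035 for Egr1 and -0.25 to 0.27 for Jund.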
